A study of Rattus norvegicus with 6 samples.

Results

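S100 proteins and annexins are families of calcium-binding proteins that often work together at the inner face of the plasma membrane. The genes studied here were the 6 S100 genes S100a4, S100a6, S100a10, S100a11, S100a13 and S100b and the 4 annexins Anxa1, Anxa2, Anxa5 and Anxa6. They were chosen by symbol from a list that was drawn up with earlier results of these data known. All 10 were among the 12121 genes in the counts. C6 is a long-established rat glioma line, raised from a brain tumour that a carcinogen had induced. RNA-seq was available for 3 libraries of C6 cells with Aqp1 overexpression (C6-AQP1) and for 3 libraries of C6 control cells without it. According to the methods, the AQP1 sequence was carried by a pCDH vector with a CMV promoter, a copGFP marker and a puromycin resistance gene. For other assays the paper names its control line C6-Pcdh, and it describes the RNA-seq as a comparison of C6 cells before and after transfection, while the labels say only control. It is therefore unclear if the control libraries came from cells with the vector. No source used here states whether the C6-AQP1 cells were 1 clone or a pool, or whether the 3 libraries of a group were separate cultures. The spread behind the p-values is therefore that of these libraries and could be technical only.

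An S100 protein is a small dimer with EF-hand loops. Binding of calcium exposes a surface with which the dimer takes hold of a target protein, often the N-terminal tail of an annexin. Annexins have a core of repeats that binds acidic phospholipids when calcium rises, so they gather at membranes during endocytosis, exocytosis and membrane repair. S100B is a classical protein of astrocytes, and several of the other genes are widely expressed in gliomas and in cultured cells.

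Of the 10 genes, 9 were lower in C6-AQP1 cells than in C6 control cells and S100b alone was higher, each at an adjusted p under 0.05 by the quasi-likelihood test of edgeR. The falls in the S100 genes reached a fold of 2.41 and those in the annexins a fold of 1.42, while S100b was 1.58-fold higher. In the whole series 40.7% of the 12121 genes were called lower, 40.8% were called higher and 81.5% were called in either direction, so a call by itself does not set these genes apart. Their median log2 fold change was -0.49, beside 0.00 over all genes. Since the list was drawn up with earlier results of these data known, this contrast is not independent of the data. The 3 C6-AQP1 libraries did not overlap the 3 C6 control libraries for any of the 10 genes, as for 82.5% of all genes. A bulk measurement does not separate a smaller share of cells that express a gene from less RNA per cell.

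Library totals lay between 19054244 and 52725870 counts. In both groups replicate 1 had the fewest counts, with 19054244 counts in C6-AQP1 and 22728100 in C6 control. It also held the highest normalized level of all 6 S100 genes in both groups, and that of 2 of the 4 annexins in C6-AQP1 and 3 of 4 in C6 control. The part of depth in this was not tested. Genes of the mitochondrial genome took 3.05% to 3.16% of the counts in the C6 control libraries and 3.68% to 3.90% in the C6-AQP1 libraries, so this share differed between the groups without overlap, and its part in the changes below was not tested. Aqp1 (ENSRNOG00000011648), the gene that was introduced, had 349 ± 2.48 normalized CPM in the control libraries and 1058 ± 5.81 with overexpression (mean ± SD, n = 3), so the labels matched the target gene. Of 11 astroglial markers 7 had a row, and of 8 markers of the oligodendrocyte lineage all 8. Of 7 fibroblast and mural markers 3 had a row and were called higher, with summed levels of 34.8 to 37.4 normalized CPM in the C6 control libraries and 142 to 147 in the C6-AQP1 libraries, and of 6 neuronal markers 3 had a row and 2 were called higher, with 84.9 to 88.3 and 257 to 263. None of 9 microglia and macrophage markers and none of 7 endothelial markers had one. Aqp4 and Sox9, both markers of astrocytes, were among those not analysed here.

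The reference sequences before the start sites of the genes are shown because members of both families fell together while S100b rose. RefSeq promoter sequences on the GRCr8 build, which is not the rn6 build of the reads, were matched by symbol for 8 of the 10 genes. Each holds 250 bases before and 50 bases after the annotated start, written in the direction of the gene. S100a10 and Anxa6 had no entry. The sequences below are of S100b, which rose, of S100a11 and S100a6, which had the largest falls, and of Anxa2, the partner of S100a10. Capitals mark matches on either strand to a TATA box, a GC box, an AP-1 site or the letters bound by FOXO4, MAZ and E2F, each spelled out with its count after the sequences. FOXO4, MAZ and E2F are the factors named in the study's title. Matches to the same motif may overlap or adjoin each other.
S100b: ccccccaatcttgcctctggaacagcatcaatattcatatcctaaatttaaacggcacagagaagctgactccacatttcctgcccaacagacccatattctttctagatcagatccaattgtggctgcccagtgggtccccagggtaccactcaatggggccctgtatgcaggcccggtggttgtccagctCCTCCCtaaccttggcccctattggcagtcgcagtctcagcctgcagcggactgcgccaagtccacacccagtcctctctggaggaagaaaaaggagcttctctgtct
S100a11: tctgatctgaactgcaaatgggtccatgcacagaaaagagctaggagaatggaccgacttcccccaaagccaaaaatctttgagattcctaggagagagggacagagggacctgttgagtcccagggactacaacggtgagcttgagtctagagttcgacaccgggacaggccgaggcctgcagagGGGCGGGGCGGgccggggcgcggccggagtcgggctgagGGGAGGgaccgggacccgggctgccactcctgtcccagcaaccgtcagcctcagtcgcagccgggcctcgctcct
S100a6: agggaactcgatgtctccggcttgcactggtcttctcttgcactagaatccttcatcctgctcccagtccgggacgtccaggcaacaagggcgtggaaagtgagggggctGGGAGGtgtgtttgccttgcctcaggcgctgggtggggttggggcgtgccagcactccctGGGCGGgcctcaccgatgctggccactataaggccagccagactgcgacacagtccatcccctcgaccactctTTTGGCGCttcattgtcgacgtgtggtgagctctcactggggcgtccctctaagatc
Anxa2: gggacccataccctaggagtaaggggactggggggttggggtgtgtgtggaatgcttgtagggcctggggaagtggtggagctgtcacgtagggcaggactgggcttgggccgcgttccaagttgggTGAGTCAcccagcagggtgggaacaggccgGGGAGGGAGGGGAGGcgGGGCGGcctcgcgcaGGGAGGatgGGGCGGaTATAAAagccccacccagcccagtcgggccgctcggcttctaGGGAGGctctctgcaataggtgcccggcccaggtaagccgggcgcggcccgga
The S100b window lies at chr20:12381032-12381331 on the minus strand, that of S100a11 at chr2:181874882-181875181 on the plus strand, that of S100a6 at chr2:178398287-178398586 on the plus strand and that of Anxa2 at chr8:78986002-78986301 on the plus strand.

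A GC box match, GGGCGG on either strand, lay in 5 of the 8 windows, those of Anxa2, Anxa5, S100a11, S100a13 and S100a6, while 33.1% of all 33469 promoters in the table hold one. The windows of S100b, which rose, and of Anxa1 and S100a4, which fell, have none. The S100b window is 54.0% G and C, inside the range of the windows of the falling genes, which ran from 45.0% for Anxa1 to 68.0% for Anxa2, and near the median of 51.7% over all promoters. A TATA box match (TATAAA) was found for Anxa1, Anxa2 and S100a4, and in 14.2% of all promoters. The AP-1 letters TGANTCA occurred in the Anxa2 window alone among the 8, and in 7.33% of all promoters. The FOXO4 letters TTGTTT occurred in the Anxa1 window and in 20.6% of all promoters. For E2F the search used TTTNGCGC, which was found in the S100a6 window and in 1.28% of all promoters. The core of the MAZ motif, GGGAGG, lay in 5 windows, those of Anxa1, Anxa2, S100a11, S100a6 and S100b, and in 39.8% of all promoters. A match describes the letters of a window and not a bound factor.

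The S100 genes are taken first, beginning with the partners of annexins A2 and A1. S100a10 (p11) is unusual in its family, since its loops no longer need calcium and it holds annexin A2 at all times. Its normalized CPM was 1007, 1002 and 966 in C6 control replicates 1, 2 and 3 and 541, 471 and 465 in the C6-AQP1 replicates. Every C6-AQP1 library was thus far below every control library, and the log2 fold change was -1.01 (SE 0.07, edgeR adjusted p = 0.00013). S100a11, which binds annexin A1, had 20.7, 19.7 and 18.6 normalized CPM in the C6 control replicates and 11.1, 6.98 and 7.28 in the C6-AQP1 replicates. Its groups did not overlap either, but C6-AQP1 replicate 1 was 1.56 times the average of replicates 2 and 3, and the coefficient of variation was 27.3% in C6-AQP1 against 5.36% in C6 control. The log2 fold change was -1.27 (SE 0.17, edgeR adjusted p = 0.00061), the largest fall of the 10 genes, and -1.45 without C6-AQP1 replicate 1. It rests on 217 to 308 counts per C6-AQP1 library, and RefSeq lists several pseudogenes of S100a11 that could share its reads.

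S100a6 (calcyclin), which binds the calcyclin-binding protein Cacybp and several annexins, was called lower as well and passed the bound of a differentially expressed gene (DEG), which is an adjusted p under 0.05 with a fold change above 2. It had 34.3, 31.0 and 33.9 normalized CPM in the C6 control replicates and 17.1, 14.1 and 13.6 in the C6-AQP1 replicates. The groups were apart, with replicate 1 the highest in C6-AQP1, and the log2 fold change was -1.17 (SE 0.07, edgeR adjusted p = 1.2e-10). S100a13, which takes part in the release of FGF1 from cells without a signal peptide, had 17.9, 17.8 and 17.8 normalized CPM in the C6 control replicates and 10.5, 10.0 and 9.53 in the C6-AQP1 replicates. The control libraries were nearly equal, all C6-AQP1 libraries were lower, and the log2 fold change of -0.84 (SE 0.07, edgeR adjusted p = 9.7e-11) did not reach a fold of 2.

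S100a4 (metastasin) binds the heavy chain of non-muscle myosin and is linked to cell motility. It had 2653, 2533 and 2387 normalized CPM in the C6 control replicates and 2058, 1867 and 1789 in the C6-AQP1 replicates. The lowest control library was 1.16 times the highest C6-AQP1 library, the narrowest gap among the 6 S100 genes. The log2 fold change was -0.41 (SE 0.07, edgeR adjusted p = 0.0058), and a larger absolute change was found in 52.5% of all genes.

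S100b went the other way. Its protein is made by astrocytes and cells of the oligodendrocyte lineage and can be released to act on the receptor Ager. It had 222, 217 and 218 normalized CPM in the C6 control replicates and 351, 349 and 338 in the C6-AQP1 replicates. Every C6-AQP1 library was at least 1.52 times the highest control library, and the log2 fold change was 0.66 (SE 0.02, edgeR adjusted p = 3.3e-17). The 7 measured astroglial markers, Gfap, Vim, Nes, Aldoc, Glul, Slc1a3 and Cd44, were called higher too, and their summed level was 4405 to 4486 normalized CPM in the C6 control libraries and 6525 to 6714 in the C6-AQP1 libraries. Of the 8 oligodendrocyte lineage markers 7 were called higher, with summed levels of 2339 to 2422 and 3546 to 3677. Most of these markers are thus present in both groups, and their part in the level of S100b was not tested. Over all genes 40.8% were called higher. The median log2 fold change was 0.70 for the astroglial and 0.82 for the oligodendrocyte lineage markers. It was 2.26 for the 3 measured fibroblast and mural markers and 1.63 for the 3 neuronal ones, the values of Col3a1 and Map2. Thy1 and Snap25 in these lists had 1 to 5 and 4 to 19 counts per C6 control library. They may have a row only through their level in C6-AQP1, which favours a rise. Col3a1 and Map2, well counted in both groups, rose too, so a rise was seen outside the glial markers. Lists this short, with many symbols lacking a row, cannot say how general it was.

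**Figure D1:**
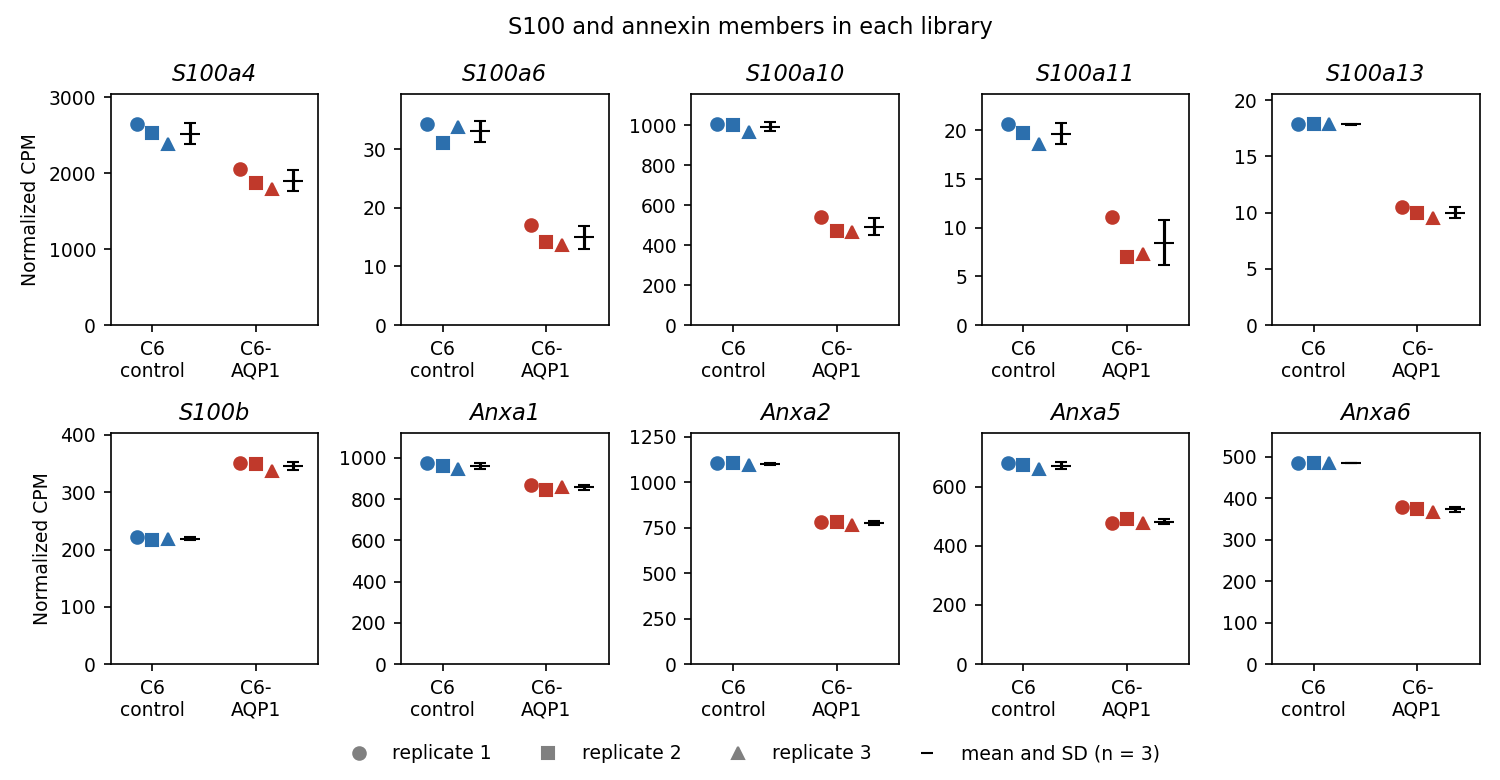
Normalized CPM (counts scaled to a common library size, linear axes from 0) of the 10 genes in every library. Circles, squares and triangles are replicates 1, 2 and 3 of C6 control (blue) and C6-AQP1 (red), with the mean and SD (n = 3) in black. The C6-AQP1 libraries lie below the controls in 9 panels and above them for S100b, and the spread is widest for S100a11 in C6-AQP1.

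The annexins fell by less than most S100 genes and with a smaller spread between libraries. Anxa2, which with S100A10 forms a complex that gathers plasminogen and its activators at the cell surface, had 1107, 1103 and 1094 normalized CPM in the C6 control replicates and 780, 784 and 766 in the C6-AQP1 replicates. The libraries of a group were close together, and the log2 fold change was -0.50 (SE 0.02, edgeR adjusted p = 8.3e-17). Anxa5 binds phosphatidylserine and serves as a probe of apoptotic cells. It had 681, 672 and 659 normalized CPM in the C6 control replicates and 478, 490 and 477 in the C6-AQP1 replicates, a log2 fold change of -0.48 (SE 0.02, edgeR adjusted p = 1.5e-15). The groups did not overlap, and the size of the change was close to that of Anxa2.

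Anxa6, an annexin with a duplicated core that acts in membrane traffic and cholesterol handling, had 485, 484 and 486 normalized CPM in the C6 control replicates and 379, 375 and 367 in the C6-AQP1 replicates. The control libraries barely differed, and the log2 fold change was -0.38 (SE 0.02, edgeR adjusted p = 7.9e-14). Anxa1, a mediator that limits inflammation through formyl peptide receptors, had 976, 960 and 945 normalized CPM in the C6 control replicates and 868, 845 and 860 in the C6-AQP1 replicates. Its lowest control library was 1.09 times its highest C6-AQP1 library, so the groups were apart by a small step. The log2 fold change of -0.16 (SE 0.02, edgeR adjusted p = 5.1e-08) was the smallest of the 10, and 79.8% of all genes had a larger absolute change.

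Within the 6 S100 genes the log2 fold changes ran from -1.27 to 0.66 with a median of -0.93, and within the 4 annexins from -0.50 to -0.16 with a median of -0.43. The annexins lay well inside the spread of all genes, whose 10th and 90th percentiles of log2 fold change were -0.75 and 1.02. S100a6, S100a10, S100a11 and S100a13 lay below this 10th percentile. By the DEG bound 3 of the 10 genes were lower and none was higher, where 4.35% of all genes were lower DEGs and 9.74% higher DEGs by edgeR. DESeq2 and limma-voom also gave 0 higher DEGs among the 10, and an unadjusted p under 0.05 gave 0 as well, since the fold of S100b stayed under 2. S100a10 sat at this bound, since its fold of 2.02 was within 1 standard error of 2. With upper-quartile scaling its log2 fold change was -0.98, and with total counts it was -0.96, so it then was no DEG.

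**Figure D2:**
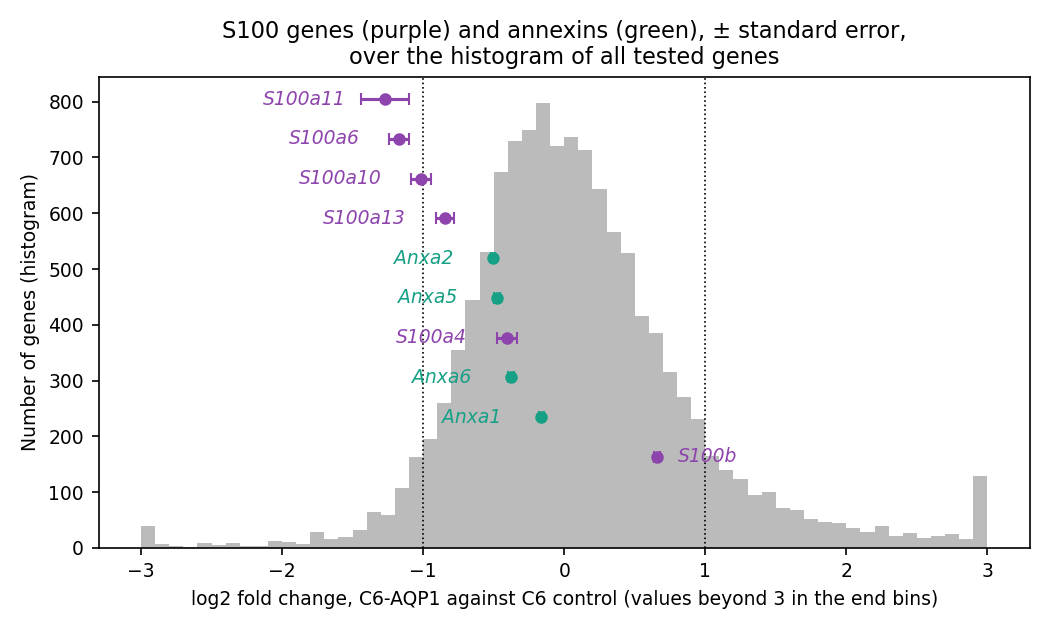
Log2 fold changes of the 6 S100 genes (purple) and 4 annexins (green) between C6-AQP1 and C6 control cells, with standard errors, over the histogram of all 12121 genes (gray, left axis; the height of the coloured points has no meaning). Dotted lines mark a fold of 2; S100a11, S100a6 and S100a10 lie beyond the lower one, and S100b is the only member above 0.

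Since S100A10 and annexin A2 make 1 complex, their transcripts were also compared within each library, where no scaling between libraries is needed. Such a ratio of counts depends on the lengths of both transcripts, so only its change between the groups is read. The ratio of S100a10 to Anxa2 counts was 0.910, 0.909 and 0.882 in C6 control replicates 1, 2 and 3 and 0.694, 0.602 and 0.607 in the C6-AQP1 replicates. It was lower in all 3 C6-AQP1 libraries, by 0.51 on the log2 scale of the group means, a fold of 1.42 (p = 0.10 by a two-sided exact permutation test over libraries, the smallest p that 3 against 3 allows). This difference is that between the log2 fold changes of both genes given above, and it says by library what those values say by group. With groups that do not overlap the p is always at its floor, so it adds no support.

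The ratio of S100a11 to Anxa1 counts was 0.0212, 0.0205 and 0.0197 in the C6 control replicates and 0.0128, 0.00825 and 0.00847 in the C6-AQP1 replicates. All C6-AQP1 libraries were lower here as well, by a fold of 2.12 (p = 0.10, the same exact test), with C6-AQP1 replicate 1 nearest to the controls. Together the 6 S100 genes took 0.388%, 0.375% and 0.358% of all counts in the C6 control replicates and 0.306%, 0.276% and 0.267% in the C6-AQP1 replicates, a sum in which S100a4 has the most counts. The 4 annexins took 0.319%, 0.316% and 0.313% in the C6 control replicates and 0.257%, 0.253% and 0.251% in the C6-AQP1 replicates. Both shares were lower in every C6-AQP1 library (p = 0.10 for each, the same exact test; 4 comparisons were made in this way, and adjusted over them p stayed at 0.10, each at the floor because the groups did not overlap).

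**Figure D3:**
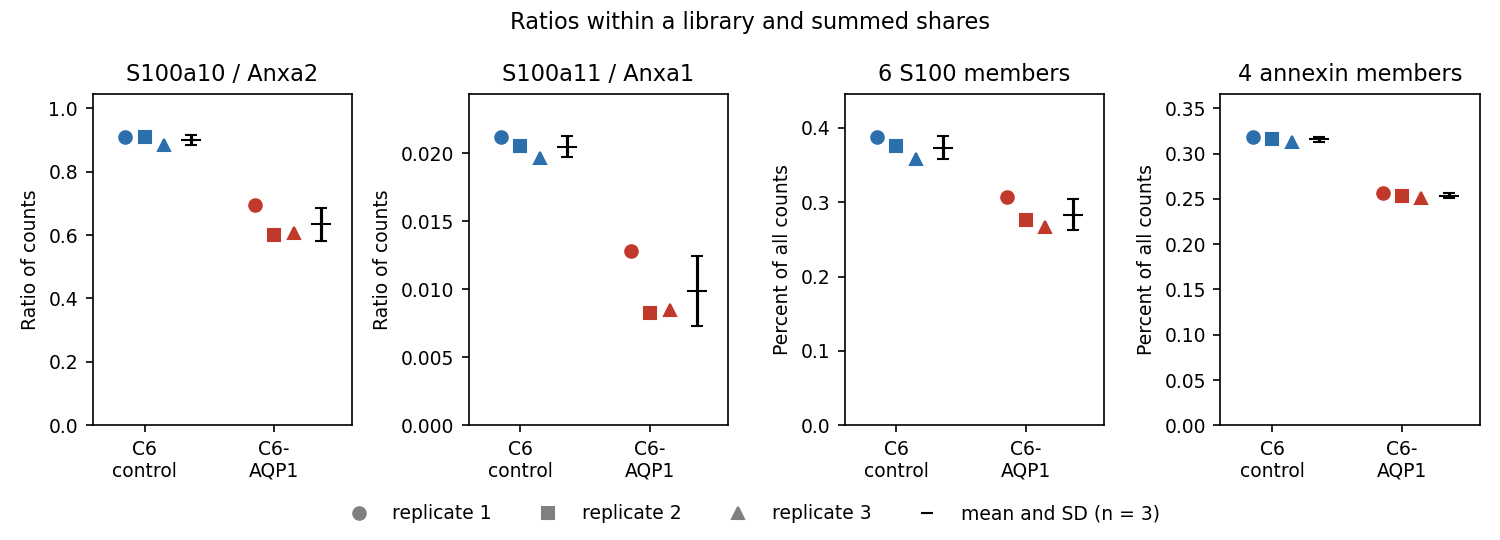
Ratio of counts within a library for S100a10 to Anxa2 and S100a11 to Anxa1, and the percent of all counts taken by the 6 S100 genes and by the 4 annexins (linear axes from 0). Symbols are replicates 1, 2 and 3 as circles, squares and triangles, with the mean and SD of 3 libraries in black; all C6-AQP1 libraries (red) lie below all C6 control libraries (blue) in each panel.

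Other members of both families did not follow a single direction. Of 12 further S100 symbols 3 had a row, 1 called higher, 1 called lower and 1 not called. Beside them stand 40.8% called higher and 40.7% called lower among all genes, so these few calls do not set the genes apart. S100a1, known from heart muscle and brain, was higher with a log2 fold change of 1.04 (SE 0.28, edgeR adjusted p = 0.0018), on only 8 to 28 counts per C6 control library and 19 to 38 per C6-AQP1 library. S100a16 was lower, with a log2 fold change of -1.25 (SE 0.35, edgeR adjusted p = 0.0023), on 9 to 48 counts per library, and its groups overlapped. S100a3 had 4.55 ± 0.109 normalized CPM in the controls and 5.23 ± 0.389 with Aqp1 overexpression (mean ± SD, n = 3). This log2 fold change of 0.20 was not called (adjusted p = 0.088), although it was with upper-quartile scaling (adjusted p = 0.049) and with total counts (adjusted p = 0.034). In the RefSeq gene order S100a1, S100a13, S100a14, S100a16, S100a3, S100a4, S100a5 and S100a6 follow each other without any other protein-coding gene between them. In this run S100a13, S100a16, S100a4 and S100a6 were called lower and S100a1 higher. The only rise among these neighbours thus rests on the few counts of S100a1. S100a11 and S100a10, which both fell, have 1 gene between them, a pseudogene.

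Of 8 further annexins 4 had a row. Anxa8 fell from 6.53 ± 0.614 to 0.828 ± 0.172 normalized CPM (mean ± SD, n = 3), a log2 fold change of -3.02 (SE 0.16, edgeR adjusted p = 1.6e-13). This was a larger fall than any of the 10 genes showed, at a low level of 19 to 36 counts per C6-AQP1 library. Anxa4, an annexin of secretory epithelia, was lower by a small step, with a log2 fold change of -0.25 (adjusted p = 3.9e-10). Anxa11, which tethers RNA granules to lysosomes and binds S100A6, was higher, from 76.8 ± 0.994 to 106 ± 4.30 normalized CPM (mean ± SD, n = 3) with a log2 fold change of 0.47 (adjusted p = 6.6e-12). Anxa7 had a log2 fold change of -0.05 and was not called (adjusted p = 0.095).

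Among 29 listed binding partners and receptors of the proteins 18 had a row, and 8 were called higher, 9 lower and 1 neither, with a median log2 fold change of -0.05. Over all genes 40.8% were called higher and 40.7% lower. The partners of S100A13 in FGF1 release were higher where S100a13 itself was lower. Fgf1 rose from 5.80 ± 0.445 normalized CPM in the controls (mean ± SD, n = 3) with a log2 fold change of 0.92 (edgeR adjusted p = 7.4e-09), and Syt1, a synaptotagmin, went from 0.166 ± 0.0645 to 10.7 ± 0.302 normalized CPM (edgeR adjusted p = 5.1e-18), on only 5 to 9 counts per C6 control library. Plau and Plg, the genes of urokinase and plasminogen, had no row, so plasminogen activation around the S100A10 and annexin A2 complex was covered only in part. Plat and Plaur went in opposite directions. Plat, the tissue plasminogen activator, rose from 24.7 ± 0.365 to 57.5 ± 1.45 normalized CPM (log2 fold change 1.23, adjusted p = 2.0e-17), while Plaur, the urokinase receptor, fell from 22.1 ± 0.984 to 8.74 ± 0.349 (log2 fold change -1.35, adjusted p = 3.2e-14). Ctsb, the protease cathepsin B, had a log2 fold change of 0.85. Cacybp, which was singled out after its values were seen because it is the partner of S100A6, fell with a log2 fold change of -0.49 (adjusted p = 9.3e-15), and Ager, singled out in the same way as a receptor of S100B, rose from 1.27 ± 0.143 to 2.22 ± 0.187 normalized CPM (mean ± SD, n = 3, edgeR adjusted p = 2.6e-04).

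Genes of plasma membrane repair, a process in which annexins seal wounds, moved by small steps in both directions. Of 24 symbols 17 had a row, with 7 called higher, 9 lower and 1 neither, a median log2 fold change of -0.08 and no change as large as 2-fold. Called in either direction were 94.1% of these rows, beside 81.5% of all genes. Ahnak, a giant scaffold protein that the S100A10 and annexin A2 complex binds, rose from 1058 ± 9.92 to 1797 ± 21.1 normalized CPM (mean ± SD, n = 3) with a log2 fold change of 0.76 (edgeR adjusted p = 4.5e-20). Both subunit genes of its partner complex fell. Cav1, the coat protein of caveolae, had a log2 fold change of 0.33. The ESCRT subunit Chmp3, the calcium sensor Pdcd6 and the caveolar ATPase Ehd2 fell, with log2 fold changes of -0.79, -0.51 and -0.31.

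Other calcium sensors and buffers fell more often than they rose. Of 34 symbols 24 had a row, 1 of them (Calm2) with 2 identifiers. Of these 25 rows 6 were called higher, 18 lower and 1 neither, with a median log2 fold change of -0.32. Over all genes 40.8% were called higher and 40.7% lower. The 2 rows of Calm2, calmodulin, had log2 fold changes of -1.01 (ENSRNOG00000004060) and -0.93 (ENSRNOG00000030871), and reads may be split between them. Vsnl1, a neuronal calcium sensor, had -3.85 (SE 0.22, edgeR adjusted p = 4.0e-13), on only 6 to 12 counts per C6-AQP1 library. Efhd1, a mitochondrial EF-hand protein, and Gca, grancalcin, rose, with log2 fold changes of 2.04 and 1.01.

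**Figure D4:**
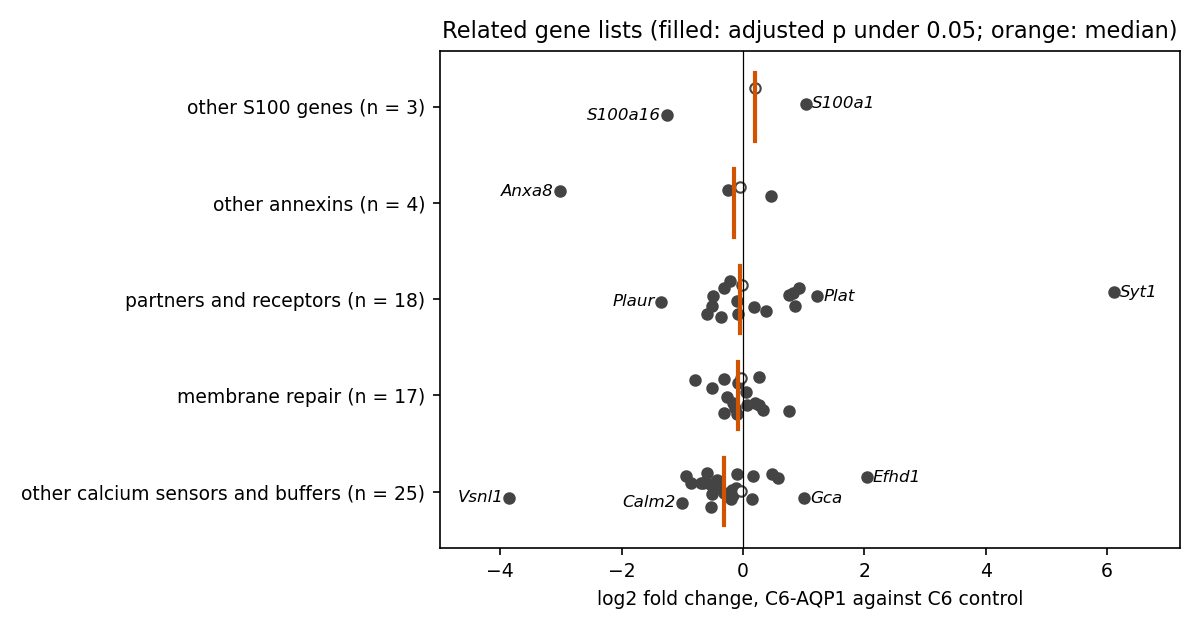
Log2 fold changes of the genes in 5 related lists between C6-AQP1 and C6 control cells. Each point is a gene, filled where its adjusted p was under 0.05 by edgeR, vertical spread is only for legibility, and the orange bar is the median of the list. The medians of the 5 lists lie between -0.32 and 0.20, with Syt1, Anxa8 and Vsnl1 farthest from 0.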

How the data were processed

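Per the labels and the methods, the authors used FastQC (0.11.2) and Trimmomatic (0.36) on the reads, STAR (2.5.1b) for alignment to rn6 and RSEM (1.2.29) for quantification. They deposited expected counts, which are estimates and not normalized, for 12121 genes, the number the methods obtain with a mean TPM above 1 in a group. RSEM divides reads that fit several genes, and no source used here names the gene annotation. The labels describe amplified cDNA and single reads, the methods paired-end reads.

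The counts were rounded and scaled by TMM in edgeR 4.0.16 (R 4.3.3), given as normalized CPM, and tested by the robust quasi-likelihood test without covariates, with Benjamini-Hochberg adjustment over all 12121 genes. A called gene had an adjusted p under 0.05, and a DEG also an absolute log2 fold change above 1. The standard error is the fold change over the root of the test statistic. Transcript lengths were not used, so levels are not compared between genes. The edgeR, DESeq2 and limma-voom fits with all libraries were run on simulated counts, in which every gene had the same dispersion. The fits with other scaling, the count filter, the replicate block or libraries left out were not. Replicates differed by more than sampling noise (chi-square per degree of freedom 2.15 to 4.31), and each library was treated as a replicate. Such values cannot tell whether the libraries were separate cultures. The members and lists were chosen with earlier results of these data known. The values of 1 listed gene are not reported here. Genes named from lists under 10 measured genes were all those measured, from longer lists the 5 with the largest absolute change among called genes that had 50 or more counts in each library of the group with the higher level. Promoters came from RefSeq (GRCr8). Alternatives were DESeq2 1.42.0, limma-voom (limma 3.58.1), other scaling, a count filter, a replicate block and leaving out libraries.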

Additional observations from a re-analysis of the deposited data

How the results depend on the processing

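Each of the 10 genes kept its direction and its call in all 13 alternatives, 130 values in all. The number of lower DEGs among them was 2 or 3 and that of higher DEGs 0 throughout. S100a10 left the DEGs with upper-quartile scaling, with total counts and without C6-AQP1 replicate 2 or 3 or C6 control replicate 1 or 2, at log2 fold changes between -0.96 and -0.998. The adjusted p of S100a4 reached 0.027 without C6-AQP1 replicate 2, the highest of the 10. Leaving out the shallower replicate 1 of both groups gave S100a10 -1.07 and S100a4 -0.43. Without 1 library at a time, the log2 difference of the S100a10 to Anxa2 ratio lay between -0.57 and -0.47. Over all genes the alternatives gave 1155 to 1294 higher and 446 to 583 lower DEGs.

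Of 1092 alternative values of the other listed genes, 23 lost a call and 4 gained one. In the membrane repair list Capns1 lost its call in 6 of 13 alternatives, Ehd1 in 5, Vps4a in 4 and Tgm2 in 2. The counts of called genes in that list thus depend on the processing. Among the genes reported, the directions that reversed belonged to genes that were not called. With total counts Anxa7 had a log2 fold change of 0.0081, Capn2 0.019 and Nucb1 0.024, and with upper-quartile scaling Nucb1 had 0.00395; these scalings move the median of all genes to 0.05 and 0.04.

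Same-numbered libraries of the groups had correlations of deviations from the group means of 0.126, -0.012 and 0.065 over all genes. With 3 libraries per group such correlations cannot decide whether the replicate numbers pair the libraries. Among the members, replicate 1 was the highest library of both groups for each S100 gene. With the replicate number as a block, 9 of the 10 genes were called lower and 1 higher, with 3 lower DEGs, as without it, and not every library correlated best with its own number. The block moved the adjusted p of S100a4 from 0.0058 to 6.7e-24, that of S100a11 from 0.00061 to 5.7e-10 and that of S100a10 from 0.00013 to 0.00058. Depth limits S100a1, S100a16, Anxa8, Vsnl1, Syt1 and Ager, with counts below 50 in some or all libraries of a group. The same holds for the markers Slc1a3, Mbp, Mog, Thy1 and Snap25.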
